A study of Homo sapiens and Homo sapiens
Mus musculus and Mus musculus with 9 samples.

Results

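The genes described here are the 3 receptors of the TAM family, AXL, TYRO3 and MERTK, and their 2 ligands, GAS6 and PROS1. They were taken from the deposited gene table by their symbols, which gave 5 genes of the 41713 that the table lists. The study asked what changes in C4-2B cells, a human prostate cancer line, when they grow in contact with osteoblasts. RNA was sequenced from 3 libraries of C4-2B cells cultured alone, 3 libraries of C4-2B cells mixed with MC3T3-E1 cells at 1 to 30, and 3 libraries of MC3T3-E1 cells cultured alone. MC3T3-E1 cells are pre-osteoblasts of the mouse, and both lines are labelled wild type. The labels give alpha-MEM with fetal bovine serum for all cells. RNA of the mixed co-culture was taken from both cell types together, so its libraries hold human and mouse RNA and a human gene is read out only after the species have been separated in silico. The table gives, for each of the 3 separation pipelines (Xenome, XenofilteR and Kallisto), the authors' mean normalised count over the libraries of C4-2B alone and of the mixed co-culture. No column belongs to a single library or group, so levels in the 2 cultures are not compared here. In such bulk RNA, fewer cells of a type and less RNA per cell cannot be told apart.

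TAM receptors are tyrosine kinases of the cell surface with immunoglobulin-like and fibronectin type III domains outside the cell. GAS6 and PROS1 (protein S, better known as a plasma anticoagulant) bridge these receptors to phosphatidylserine on membranes, and both need vitamin K-dependent carboxylation of their Gla domain for this. GAS6 binds each of the receptors, whereas PROS1 acts on TYRO3 and MERTK. In the bone, GAS6 from osteoblasts and the balance of TAM receptors on prostate cancer cells have been linked to dormancy of disseminated tumor cells.

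Reads of the 2 species are told apart by their sequence, so the stretches of each human transcript that occur unchanged in mouse transcripts are shown first. For each gene, the longest such stretch that lies wholly in coding sequence is printed 5′ to 3′ from the GENCODE release 44 canonical transcript (GRCh38), with the identical bases in capitals and 15 flanking transcript bases on each side in lower case.
AXL: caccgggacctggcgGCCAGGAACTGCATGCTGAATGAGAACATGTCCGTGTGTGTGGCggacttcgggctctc
TYRO3: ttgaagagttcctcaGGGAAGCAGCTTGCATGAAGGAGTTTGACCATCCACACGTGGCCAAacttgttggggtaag
MERTK: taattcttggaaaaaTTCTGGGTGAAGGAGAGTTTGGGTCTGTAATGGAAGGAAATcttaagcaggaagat
GAS6: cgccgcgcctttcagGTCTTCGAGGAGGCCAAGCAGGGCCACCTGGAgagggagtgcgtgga
PROS1: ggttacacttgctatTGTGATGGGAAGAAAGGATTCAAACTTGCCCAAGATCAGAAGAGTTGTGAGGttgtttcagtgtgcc

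The AXL stretch of 44 bases crosses from exon 17 (chr19:41253695-41253708, plus strand) into exon 18 (chr19:41256452-41256481) and codes for part of the catalytic loop of the kinase. The TYRO3 stretch of 46 bases lies in exon 14 (chr15:41571634-41571679, plus strand) and also codes for part of the kinase domain. The MERTK stretch of 41 bases joins exon 12 (chr2:112003176-112003187, plus strand) to exon 13 (chr2:112003904-112003932) and codes for the glycine-rich loop of the kinase. The GAS6 stretch of 32 bases lies in exon 2 (chr13:113863645-113863676, minus strand), in the part that codes for the Gla domain. The PROS1 stretch of 52 bases takes 51 bases of exon 8 (chr3:93898448-93898498, minus strand) and 1 base of exon 9 (chr3:93896691-93896691), within the sequence of an EGF-like domain. Each of these 5 stretches was found in the mouse orthologue and in no other mouse gene.

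Such stretches were few in every member. Of the distinct 31-base sequences in its transcripts, AXL shared 0.76% with mouse transcripts (39 of 5131), MERTK 0.645%, TYRO3 0.617%, PROS1 0.423% and GAS6 0.317%. The median of 19874 protein-coding genes was 0.502%, so AXL, MERTK and TYRO3 lay above it and both ligands below it. At 50 bases, the length of 1 read, AXL, MERTK and GAS6 shared none with mouse, while TYRO3 shared 16 sequences and PROS1 3. In the canonical transcripts, AXL had 7 identical stretches, MERTK 5, TYRO3 4, GAS6 3 and PROS1 2. All 5 stretches of MERTK and both of PROS1 were coding, and 2 of the 3 stretches of GAS6 lay in the untranslated end of exon 15.

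AXL differed from the other members in 1 of these stretches. A run of 38 bases in the untranslated sequence of its exon 20 (chr19:41260295-41260332) was found in 202 mouse genes, though not in Axl. Its most frequent 31-base sequence occurred 1251 times in mouse transcripts, a number that 4.77% of coding genes reached or passed. The corresponding number was 4 for TYRO3, 2 for MERTK, and 1 for both GAS6 and PROS1. A second untranslated stretch of AXL was found in Prss43 and 1 of TYRO3 in Ckmt1, again not in the orthologue.

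**Figure D1:**
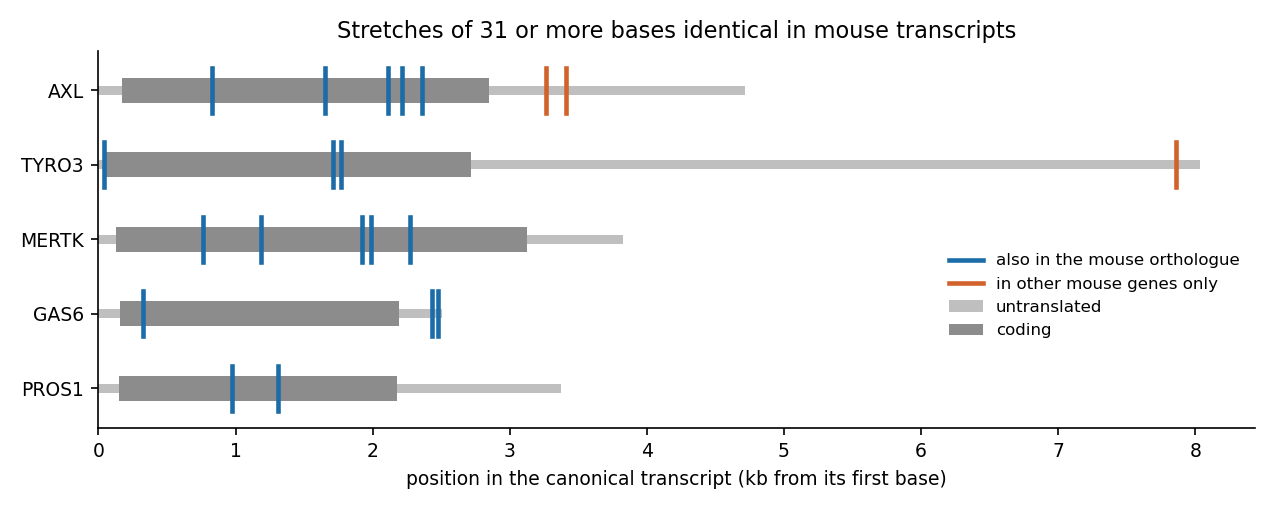
Position of each stretch of 31 or more bases that is identical in mouse transcripts, along the canonical transcript of each gene (kb from its first base; thick grey, coding; thin grey, untranslated). Blue marks stretches present in the mouse orthologue, and orange marks the 2 stretches of AXL and the 1 of TYRO3 that were found in other mouse genes only.

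AXL was the receptor on which the pipelines disagreed. AXL (ENSG00000167601, chr19:41219223-41261766, plus strand, 20 exons in its canonical transcript) had a mean normalised count of 7.93 with Xenome and 7.94 with XenofilteR, against 923 with Kallisto. The Kallisto mean was thus 116 times the Xenome mean, while XenofilteR differed from Xenome by 0.0606%. Xenome and XenofilteR filter reads by species before or after alignment and then count them per gene, whereas Kallisto divides reads among human and mouse transcripts in 1 joint index. The reads behind the Kallisto mean were not traced to libraries, so no spread is given for it.

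TYRO3 (ENSG00000092445, chr15:41557675-41583589, plus strand, 19 exons) had the highest mean of the members in all 3 pipelines. Xenome gave it a mean normalised count of 2104.9, XenofilteR one of 2098.7 and Kallisto one of 2244.2. The 3 values lay close together, with Kallisto 6.62% above Xenome. MERTK, the receptor best known for clearance of dying cells by phagocytes (ENSG00000153208, chr2:111898607-112029561, plus strand, 19 exons), was at 253 for Xenome and at 255 for both of the other pipelines. No member had a Kallisto mean closer to its Xenome mean than MERTK, with a difference of 0.636%.

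Of the ligands, GAS6 (ENSG00000183087, chr13:113820549-113864076, minus strand, 15 exons) had the higher mean. Xenome gave it a mean normalised count of 291, XenofilteR one of 292 and Kallisto one of 259, and it was the 1 member that Kallisto placed below Xenome, by 11% of the Xenome mean. PROS1 (ENSG00000184500, chr3:93873051-93980003, minus strand, 15 exons) had means of 42.5 (Xenome), 42 (XenofilteR) and 61.6 (Kallisto). The Kallisto mean of PROS1 was 1.45 times its Xenome mean, the largest such ratio after that of AXL.

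**Figure D2:**
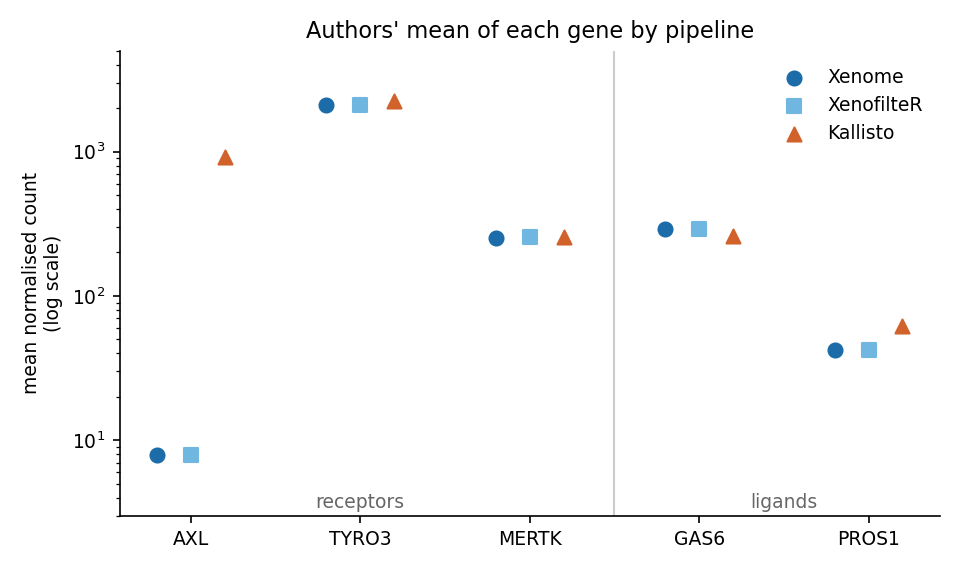
Authors' mean normalised count of each gene (log axis) by Xenome (circles), XenofilteR (squares) and Kallisto (triangles). For TYRO3, MERTK, GAS6 and PROS1 the 3 symbols lie close together, whereas for AXL the Kallisto symbol stands at 923 and the other two near 7.9.

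To place these ratios, the Kallisto mean was divided by the Xenome mean for all 15619 genes with a mean normalised count of at least 1 in both. Of these genes, 15580 were protein-coding. The median ratio was 1.03, with the 5th percentile at 0.851 and the 95th at 8.42, and 79.6% of the genes lay within 1.5 times in either direction. The ratios of MERTK (1.01) and TYRO3 (1.07) were above those of 38.2% and 60.8% of the genes. PROS1, at 1.45, was above 80.8%, and GAS6, at 0.89, above 6.58%. AXL was above 99.5%, and 81 other genes had a ratio at least as high. Thus 4 of the 5 members lay within 1.5 times, a share of 80% near the 79.6% of all genes. Among the 11669 genes with a Xenome mean of at least 50, the 95th percentile was 2.22 and 89.2% lay within 1.5 times, as did TYRO3, MERTK and GAS6, the members above that mean. Between XenofilteR and Xenome, 99.2% of genes lay within 1.5 times, as did all 5 members, whose ratios ran from 0.987 to 1.00.

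**Figure D3:**
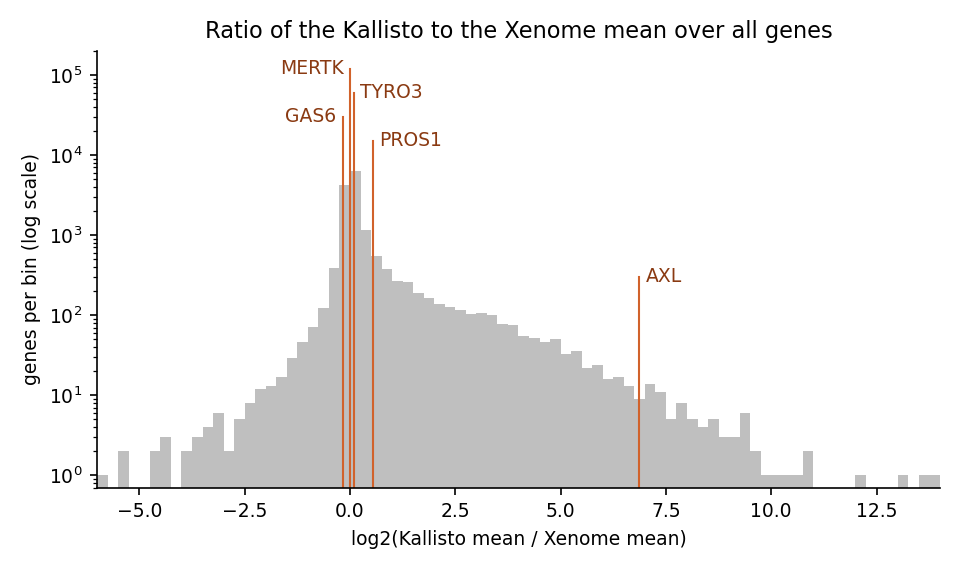
Number of genes (log axis) by log2 of the Kallisto mean over the Xenome mean, for 15617 of the 15619 genes with a mean of at least 1 in both (2 lie outside the axis), with the members as orange lines. TYRO3, MERTK, GAS6 and PROS1 fall in or beside the central peak, and AXL lies in the thin right tail at a ratio of 116.

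The right tail held coding genes of different kinds, and AXL was set beside them by 2 features of the annotation. The annotation held 76 coding genes with a ratio at least that of AXL, AXL included. Of these, 46.1% had 50% or more of their exon bases within an exon of another gene on the same strand, against 2.97% of 15549 coding genes. AXL had 0 such bases, as did 34 of the 76 genes, and so did TYRO3, MERTK, GAS6 and PROS1. On the other strand, 67 bases of AXL exons (1.31%) lay within exons of another gene. The sequence shared with mouse was low in the tail, with a median of 0.447% over the 76 genes, against 0.598% over the 15549. Of the 6833 coding genes that shared at least as large a part as AXL, 3.7% had a ratio of 10 or more, against 4.2% of all. Of the 802 coding genes with a shared 31-base sequence at least as frequent in mouse transcripts as that in AXL, 8.85% did. The part of shared sequence in the Kallisto mean of AXL was not tested.

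Levels of different genes can be set side by side only per length, so the means were divided by the merged exon length of each gene. On this scale TYRO3 led with Xenome at 195 per kb (10770 exon bases), followed by MERTK at 61.3, GAS6 at 48.3, PROS1 at 8.07 and AXL at 1.54. TYRO3 was above 60.3% of 17784 coding genes, MERTK above 45.7%, GAS6 above 43.9%, PROS1 above 32% and AXL above 21.6%. With XenofilteR the order was the same. With Kallisto, AXL moved from the last place to the second, at 180 per kb, behind TYRO3 at 208 per kb. AXL was then above 60.5% of 19874 coding genes, a larger set than the 17784 ranked with Xenome. The level of AXL per kb was 0.0079 of that of TYRO3 with Xenome and 0.863 of it with Kallisto. MERTK, GAS6 and PROS1 kept their order among themselves in all 3 pipelines, at 61.7, 43 and 11.7 per kb with Kallisto.

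Added per kb, the receptors were thus composed differently by pipeline. TYRO3 made up 75.7% of the receptor sum with Xenome, MERTK 23.7% and AXL 0.598%. With Kallisto, TYRO3 made up 46.3%, AXL 40.0% and MERTK 13.7%. Of the ligand sum, GAS6 made up 85.7% with Xenome and 78.6% with Kallisto, and PROS1 the rest. The order of GAS6 and MERTK rested on the length used. GAS6 has 6015 merged exon bases, against 2646 bases in its longest transcript. Divided by the longest transcript, GAS6 stood at 110 per kb with Xenome, above MERTK at 66.2.

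**Figure D4:**
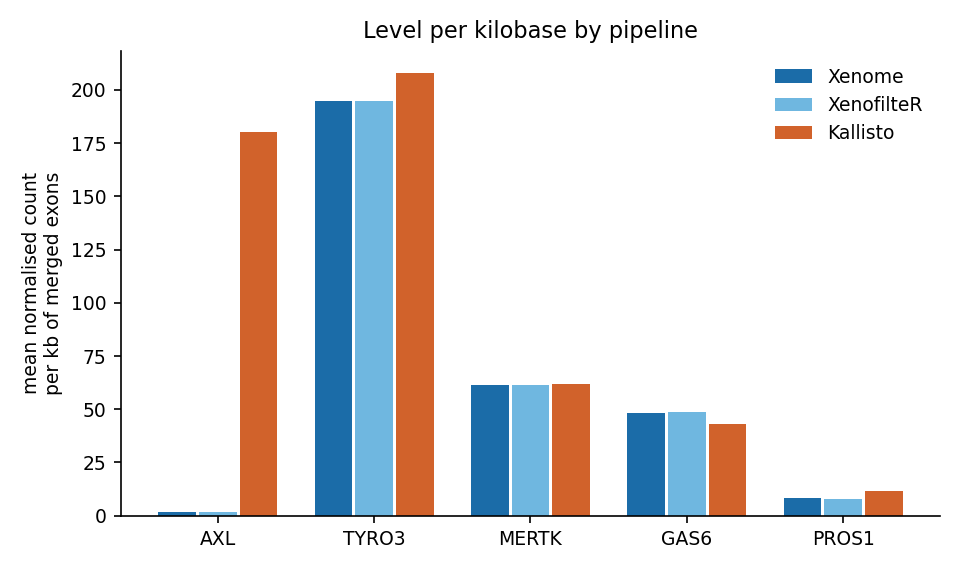
Mean normalised count per kb of merged exons for each gene by pipeline (bars from 0). TYRO3 is highest in each pipeline, and AXL is lowest with Xenome and XenofilteR (1.54 and 1.55 per kb) and second with Kallisto (180 per kb).

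The Xenome and XenofilteR means are sums of whole reads divided by size factors, and from the repeated steps of low means the weight of 1 read in each of 6 libraries was solved. The labels do not tell which of these libraries is which, so they are numbered by falling size factor and go into no comparison between the cultures. Their normalised counts are given 1 by 1. The Xenome size factors were 5.93, 5.31, 4.86, 0.427, 0.145 and 0.109, a 54.4-fold range. They scale the reads assigned to human genes, so they depend on the human share of a library and do not measure its total sequencing depth. A single read of library 1 adds 0.0281 to a mean and a single read of library 6 adds 1.53. Intervals below are exact 95% Poisson intervals that treat each read as independent. They cover counting error only, since the reads carry no molecular identifiers. Both reads of a pair may have been counted, and the intervals are then too narrow, so intervals that lie apart do not settle a difference.

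For AXL, the Xenome mean came from 115 reads, with 60 in library 1, 21 in library 2, 28 in library 3, 3 each in libraries 4 and 5, and 0 in library 6. Divided by the size factors, these are normalised counts of 10.1 (7.73 to 13.0), 3.95 (2.45 to 6.04), 5.76 (3.83 to 8.32), 7.03 (1.45 to 20.6), 20.7 (4.27 to 60.6) and 0 (0 to 33.9). The intervals of libraries 1 and 2 did not overlap. The intervals of libraries 4 and 5 each cover the values of libraries 1 and 3. The interval of library 6 covers the values of all the others, and the floor of 3 reads stands at 27.6 there. The 3 reads of library 5 supplied 43.5% of the Xenome mean, and libraries 4 to 6 supplied 58.3% of it from 5.22% of the reads. XenofilteR held the same number of AXL reads in each of the 6 libraries.

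PROS1 rested on 769 reads with Xenome, with 269, 222 and 256 in libraries 1 to 3 and 9, 11 and 2 in libraries 4 to 6. Its normalised counts were 45.4 (40.1 to 51.2), 41.8 (36.5 to 47.6), 52.7 (46.4 to 59.5), 21.1 (9.65 to 40.1), 76.0 (37.9 to 136) and 18.4 (2.22 to 66.4). The intervals of libraries 1 to 3 overlapped, and that of library 4 lay wholly below that of library 3. The intervals of libraries 5 and 6 overlapped those of all the others. With XenofilteR, PROS1 had 5 fewer reads in library 3, 1 more in library 5 and 1 fewer in library 6, which gave 764 in all. With these reads the interval of library 5 (42.9 to 145) no longer overlapped that of library 4 (9.65 to 40.1).

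The means of MERTK and GAS6 are too large for a single solution, with 1249 and 2460 combinations of reads that match with Xenome. For each of them, just 1 pair of a Xenome and a XenofilteR combination agreed within 2 reads plus 2% in every library, and that pair is given here. Both pipelines did agree so closely for 86.8% of 400 coding genes whose reads were solved without this condition. Those genes were drawn at lower means than MERTK and GAS6, so this share need not hold for the 2 members. The reads of MERTK and GAS6 thus rest on an assumption that those of AXL and PROS1 do not need.

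MERTK had 4679 reads with Xenome, with 1436, 1509 and 1584 in libraries 1 to 3 and 92, 35 and 23 in libraries 4 to 6. Its normalised counts were 242 (230 to 255), 284 (270 to 299), 326 (310 to 342), 216 (174 to 264), 242 (168 to 336) and 211 (134 to 317). The interval of library 3 lay wholly above those of libraries 1, 2 and 4. That of library 2 lay wholly above those of libraries 1 and 4. With XenofilteR, the intervals of library 2 (270 to 299) and library 4 (180 to 272) overlapped. The highest Xenome value was 1.54 times the lowest. GAS6 had 5108 reads, with 1893, 1632 and 1397 in libraries 1 to 3 and 114, 43 and 29 in libraries 4 to 6. Its normalised counts were 319 (305 to 334), 307 (292 to 322), 287 (272 to 303), 267 (220 to 321), 297 (215 to 400) and 266 (178 to 383), and the highest was 1.2 times the lowest. The interval of library 1 lay wholly above that of library 3. Of the 4 solved members, GAS6 had the smallest ratio of highest to lowest value. The reads of TYRO3 could not be solved, as its mean allows too many combinations.

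**Figure D5:**
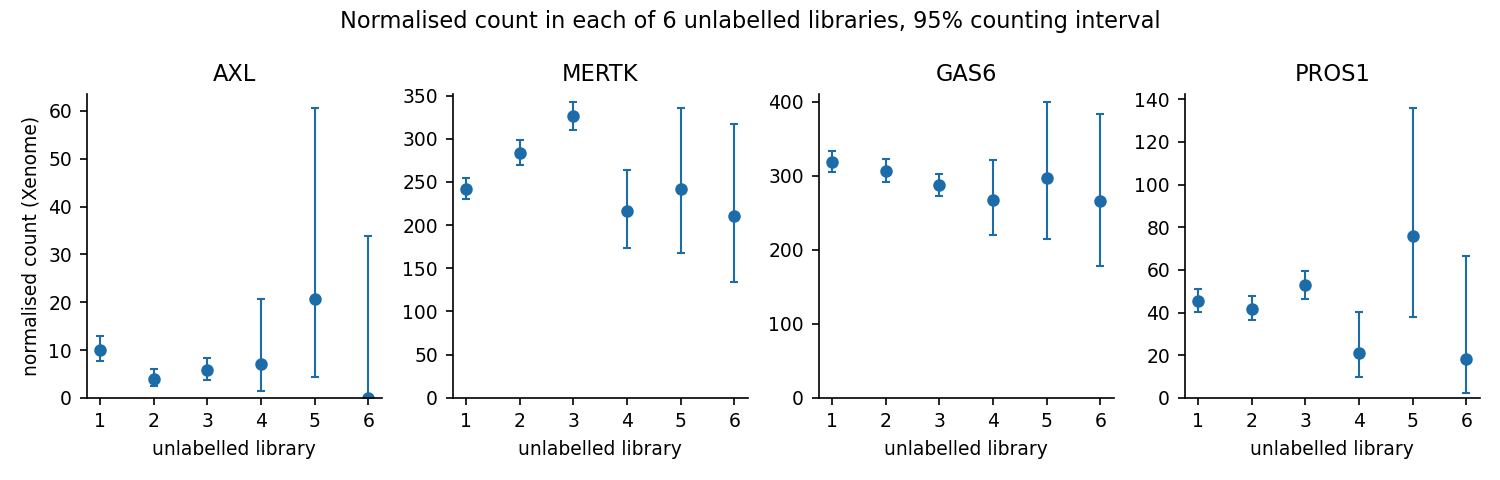
Normalised count (Xenome) of AXL, MERTK, GAS6 and PROS1 in each of the 6 unlabelled libraries, numbered by falling size factor, with exact 95% Poisson intervals as bars and an axis from 0 in each panel. The intervals of libraries 4 to 6 are wide in every panel, and AXL has 0 reads in library 6.

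Within each library, the solved members fell in the same order per kb, though their intervals did not always lie apart. With Xenome, the normalised count per kb lay between 51.1 and 78.8 for MERTK, 44.3 and 53.1 for GAS6, 3.49 and 14.4 for PROS1, and 0 and 4.04 for AXL. MERTK was above GAS6 in 6 of 6 libraries, by 1.1 to 1.65 times. However, their ranges over libraries overlapped, and the longest transcript turned their order. Their intervals overlapped within libraries 4 to 6, and with XenofilteR within library 1 as well. GAS6 was above PROS1 in 6 of 6 libraries, by 3.42 to 12.7 times with Xenome and 3.14 to 25.4 times with XenofilteR, where PROS1 has 1 read in library 6. The ranges of GAS6 and PROS1 did not overlap. PROS1 was above AXL in each library, but the intervals overlapped in libraries 4 to 6, where library 6 held 2 reads of PROS1 and 0 of AXL. The intervals of PROS1 and AXL thus lay apart in libraries 1 to 3 only.

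Of a list of 7 symbols for transcripts that neighbour or overlap the members or are copies of them, 3 had a row in the table. GAS6-AS1, a long non-coding RNA on the strand opposite to GAS6, had a mean of 745 with Xenome and 732 with XenofilteR. Per kb of merged exons it stood at 104 with Xenome, above the 48.3 of GAS6, but by the longest transcript GAS6 stood at 110 and GAS6-AS1 still at 104. The genes share 421 exon bases, which is 7% of the exon bases of GAS6 and 5.87% of those of GAS6-AS1. The library kit marks the strand, but whether strand was used in counting is not given in the sources used here, so GAS6 reads in these bases are uncertain. GAS6-DT, a non-coding transcript that starts next to GAS6, had 104 reads with Xenome and normalised counts of 7.09, 4.7, 6.99 and 7.03 in libraries 1 to 4. Its 0 reads in libraries 5 and 6 lie under floors of 20.7 and 27.6. TYRO3P, a processed pseudogene of TYRO3, had a mean of 15.6 in both pipelines from 204 reads with Xenome. TYRO3 shares 5.08% of its 31-base sequences with TYRO3P, and PROS1 shares 13% with its pseudogene PROS2P, so reads of TYRO3 and PROS1 in these parts are uncertain as well. Kallisto listed none of these 3 transcripts. It gave means for 20359 genes, against 39193 with Xenome, and nearly all genes with a mean of at least 1 in both were protein-coding.

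The wider TAM pathway was read from a list of 28 genes, covering other reported ligands, the carboxylation of the ligands, receptor shedding, adaptors, downstream kinases and feedback. Of these, 27 had a mean of at least 1 with both Xenome and Kallisto, and 23 of the 27 (85.2%) lay within 1.5 times, with a median ratio of 1.02, against 79.6% and 1.03 for all genes. The highest ratio was that of PIK3R2, a regulatory subunit of PI3-kinase, with 23.4 for Xenome and 7487.9 for Kallisto, a ratio of 320. Unlike AXL, PIK3R2 has 76.4% of its exon bases within exons of another gene on the same strand. VKORC1, which recycles the vitamin K used to carboxylate GAS6 and PROS1, followed with 751 and 1711.1. VKORC1 shares 34.7% of its exon bases with another gene on the same strand. The lowest ratios were those of TULP1 (40.9 and 31.9), a reported TAM ligand, and TWIST1 (2.09 and 1.06), a transcription factor of epithelial-mesenchymal transition. Besides PIK3R2, VKORC1 and TWIST1, the gene outside 1.5 times was PIK3CA, a catalytic subunit of PI3-kinase, with 865 for Xenome and 1676.2 for Kallisto, a ratio of 1.94.

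Markers of both cell types were read in the same means, which pool the cultures and so check no single label. The 4 prostate markers reported had high means in each pipeline, from 4602.5 to 51037.7 with Xenome. Their ratios of Kallisto to Xenome were 0.88 (KLK3, prostate-specific antigen), 0.994 (TMPRSS2), 0.998 (HOXB13) and 1.27 (FOLH1). The human forms of 10 osteoblast genes, which mouse reads could reach, ranged from 0.103 to 3384.0 with Xenome, and 3 of them were below 1. Among them XenofilteR and Xenome differed by up to 5.86 times, for COL1A2 (45 with Xenome, 264 with XenofilteR and 222 with Kallisto). SPARC was at 72 with Xenome and 142 with both others, COL1A1 at 3384.0, 4557.4 and 2470.8, and BGLAP at 3.78, 3.75 and 1.12.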

How the data were processed

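Stranded mRNA libraries were read as 50-base pairs. To separate the species, the authors either selected the human reads (Xenome) or filtered out those of the mouse after alignment (XenofilteR), and counted reads per gene with featureCounts after HISAT2 alignment to GRCh38. In the third pipeline Kallisto estimated gene counts from an index of GENCODE transcripts of both species. In each pipeline the authors divided counts by DESeq2 size factors and deposited their mean over the libraries as 1 value per gene. The table has 41734 rows, of which 21 repeat a gene and were dropped. The authors' deposited comparison columns (log2 fold change, standard error, statistic, p-value and adjusted p-value) were not used, and the 3 libraries of MC3T3-E1 alone are not in these means. No test was run, because the mean columns carry no library labels.

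The weight of 1 read in each of 6 libraries was found from 4921 (Xenome) and 4877 (XenofilteR) means below 2.2, and members' means were written as sums of whole reads by exhaustive search to the 15 digits given. The size factors so found have a geometric mean of 1.00 in both pipelines. All 7248 Xenome means below 0.35 were whole-read sums within 1e-09, with steps that had been refined on low means. Of 1209 Kallisto means, 42.6% were sums of its most frequent low values, which were not refined. The shares are therefore not like for like, and Kallisto was not solved. On simulated reads at the means of AXL, PROS1, MERTK and GAS6, the true reads were the single answer for 30 of 30, 30 of 30, 12 of 12 and 12 of 12 genes. The simulated pipelines were made to differ little, so this did not test whether real pipelines agree closely enough for the pairing used for MERTK and GAS6. That pairing was chosen after seeing the data. Exon lengths, positions and sequences came from GENCODE release 44 (human, GRCh38) and release M21 (mouse), whose gene coordinates for the 5 members equal those deposited. The annotation release used by the authors is not given in the sources used here. Scripts ran in Python 3.11.15 with NumPy 2.4.6, pandas 2.3.3, SciPy 1.17.1 and numba 0.67.0.

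All 5 members are named. From each list, the 2 highest and 2 lowest genes by the Kallisto over Xenome ratio are named, and PIK3CA was named after its values were seen. Some prostate markers are not reported here. Members and lists were chosen with earlier results of these data known.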

Additional observations from a re-analysis of the deposited data

How the results depend on the processing

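Of 70 values recomputed under another setting, 61 stayed within 1.5 times of the reported value. With Kallisto in place of Xenome the mean normalised count of AXL was 923 in place of 7.93. With the longest transcript in place of merged exons, the level per kb was 110 in place of 48.3 for GAS6 and 12.4 in place of 8.07 for PROS1. With 50 bases in place of 31, the part shared with mouse transcripts was 0 for AXL, MERTK and GAS6, 0.147% for TYRO3 and 0.0541% for PROS1. Ranked among genes with a Xenome mean of at least 50, GAS6 was above 4.19% in place of 6.58%. Counted from the upper end, where a percent below is near its ceiling, the share of genes with a ratio at least as high fell from 0.519% to 0.0428% for AXL and from 19.2% to 10.4% for PROS1. Leaving out each of the 6 libraries in turn, the Xenome mean ran from 5.37 to 9.52 for AXL, from 35.9 to 47.4 for PROS1, from 239 to 262 for MERTK and from 285 to 296 for GAS6. The lowest AXL mean was that without library 5. A 10 times wider tolerance left 1 solution, with the same reads, for AXL and PROS1, and was not run for MERTK and GAS6. AXL had 3 reads or fewer in each of libraries 4 to 6. No paired analysis was possible because the table holds no column per library and the solved libraries carry no replicate number.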
